A study of Mus musculus with 3 samples.

Results

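The muscle atrophy ligases and the Foxo factors were followed on 3 arrays of C2C12 cells, a mouse myoblast-derived line. The genes were the F-box gene Fbxo32 (atrogin-1, also MAFbx), the RING finger genes Trim63 (MuRF1), Trim55 (MuRF2) and Trim54 (MuRF3), the forkhead genes Foxo1, Foxo3 and Foxo4, and the Krüppel-like factor gene Klf15. Members were the probes whose gene name on the array equalled one of these 8 genes. The rule found 7 genes with 1 probe each, among 18356 gene names and 23473 probes on the array, Foxo3 being carried as Foxo3a. No probe carried the name Foxo4, and the eighth probe was added through Mllt7, which the gene table lists as its older symbol.

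C2C12-DF cells were parental cells whose serum was lowered, to 2% horse serum, for 2 days of differentiation. C2C12-W4-08 cells were 1 clone of stable transfectants that carried V5-tagged Wnt4 under the CMV promoter, selected in blasticidin and held in rich proliferation medium (10% fetal bovine serum) for 2 days. C2C12-PR cells, the common comparison for both, were parental cells held in that rich medium for the same 2 days. Each condition had 1 array, so that no value had a replicate and no test between conditions was possible. No transfected and selected line without Wnt4 was analysed here, and the array of the clone was scanned on a later day than the parental arrays, which share a scan day. Wnt4, the clone, the selection and the scan therefore cannot be told apart.

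Skeletal muscle breaks down its contractile proteins mainly through the ubiquitin-proteasome system, in which a ligase picks the protein to be marked. Fbxo32 is the substrate-binding subunit of a cullin-based ligase, and its known substrates include MyoD and the translation initiation factor subunit Eif3f. The 3 MuRF proteins sit on titin, the sarcomere and microtubules, and Trim63 marks thick filament proteins for breakdown in wasting muscle. The Foxo proteins are transcription factors that Akt keeps in the cytoplasm by phosphorylation when insulin or IGF signals are strong. When those signals are weak, Foxo proteins enter the nucleus and raise Fbxo32 and Trim63 transcription, and Klf15, a glucocorticoid-induced factor, acts on the same ligases. Much of Foxo control is therefore at the protein level, which an RNA array does not measure.

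Promoter sequence is shown for Trim63, a ligase known as a Foxo target, and for Trim54 and Foxo1, the members more than 2-fold higher in C2C12-W4-08. RefSeq promoter windows of 300 bases, 250 before and 50 after the transcription start, in GRCm38.p6 matched 5 of the 8 members. Fbxo32, Trim55 and Foxo4 had no matched window, so that their promoters were not searched. Capitals mark every match, on both strands, to the Foxo element GTAAACA (read as TGTTTAC on the other strand), the E-box CANNTG or the palindromic glucocorticoid receptor core ACANNNTGT, and no matches overlapped. All of the 3 windows are on the plus strand, at chr4:134314870-134315169 for Trim63, chr5:31116362-31116661 for Trim54 and chr3:52268087-52268386 for Foxo1.
Trim63: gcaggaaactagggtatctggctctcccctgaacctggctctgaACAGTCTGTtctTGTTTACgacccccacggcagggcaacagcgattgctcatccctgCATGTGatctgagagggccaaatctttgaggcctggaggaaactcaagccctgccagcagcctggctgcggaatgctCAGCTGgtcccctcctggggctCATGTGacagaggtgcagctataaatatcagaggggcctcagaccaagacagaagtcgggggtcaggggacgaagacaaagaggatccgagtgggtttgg
Trim54: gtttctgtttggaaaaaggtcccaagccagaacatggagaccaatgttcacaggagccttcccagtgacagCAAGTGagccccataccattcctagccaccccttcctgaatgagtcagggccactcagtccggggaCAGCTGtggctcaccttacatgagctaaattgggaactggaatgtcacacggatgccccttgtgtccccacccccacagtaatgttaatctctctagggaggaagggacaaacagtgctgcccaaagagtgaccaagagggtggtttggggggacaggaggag
Foxo1: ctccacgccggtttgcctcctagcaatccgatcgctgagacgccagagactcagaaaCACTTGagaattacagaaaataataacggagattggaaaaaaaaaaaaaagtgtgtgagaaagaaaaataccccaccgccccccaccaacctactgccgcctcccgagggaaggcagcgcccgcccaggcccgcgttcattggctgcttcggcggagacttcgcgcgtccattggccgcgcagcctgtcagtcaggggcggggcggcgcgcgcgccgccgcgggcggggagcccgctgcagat

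Of these windows, only that of Trim63 held the Foxo element, 194 bases upstream of the start site. The same window held the match ACAGTCTGT 206 bases upstream and 3 E-boxes. The Trim54 window held 2 E-boxes and the Foxo1 window 1. Of the other matched windows, that of Klf15 held 3 E-boxes, each with the letters CACGTG, and that of Foxo3 held none of the motifs. Among all 32851 promoter windows, 3.65% held the Foxo element, 72.3% an E-box and 6.85% the glucocorticoid receptor core, so that an E-box was the common case. A match is a run of letters in a window and was not measured as a binding site here.

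The signal of a probe was its spot median minus the mean of 1750 blank spots of the same array, multiplied by a factor that put the median ratio to C2C12-PR at 1 and the C2C12-PR median at 25. A probe was called detected above the blank mean plus 2 SD. The blank spots averaged 17.9 ± 2.16 scanner units in C2C12-DF, 4.38 ± 0.803 in C2C12-W4-08 and 20.4 ± 2.95 in C2C12-PR (SD over blank spots). The lowest detected signal was therefore 2.35 in C2C12-DF, 0.697 in C2C12-W4-08 and 2.72 in C2C12-PR. Detected probes numbered 17454, 21783 and 16859 in that order of arrays. Wnt4 itself had a signal of 115 in C2C12-W4-08 and 4.63 in C2C12-DF and lay below the limit in C2C12-PR, at least 42.2-fold higher in the clone. Myoblast and myotube markers were detected for 8 of 8 genes in C2C12-DF and 8 of 8 in C2C12-W4-08, against 6 of 8 in C2C12-PR, where Ckm and Myh3 were below the limit. The count of the clone rests in part on its lower limit, as Myh3 had 1.13 there, with no direction against C2C12-PR. Of 6 markers compared between the clone and C2C12-PR, 4 had a negative log2 ratio and 2 a positive one. The summed signal of the markers was 10612, 1390 and 2486 in C2C12-DF, C2C12-W4-08 and C2C12-PR.

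The ligases Fbxo32 and Trim54 were several times brighter after serum withdrawal. Trim54 and Foxo1 were brighter in the Wnt4 clone. Trim55 was detected on every array and differed by less than 2-fold in both comparisons. Trim63, Foxo3, Foxo4 and Klf15 lay at or near the blank spots on both parental arrays.

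**Figure D1:**
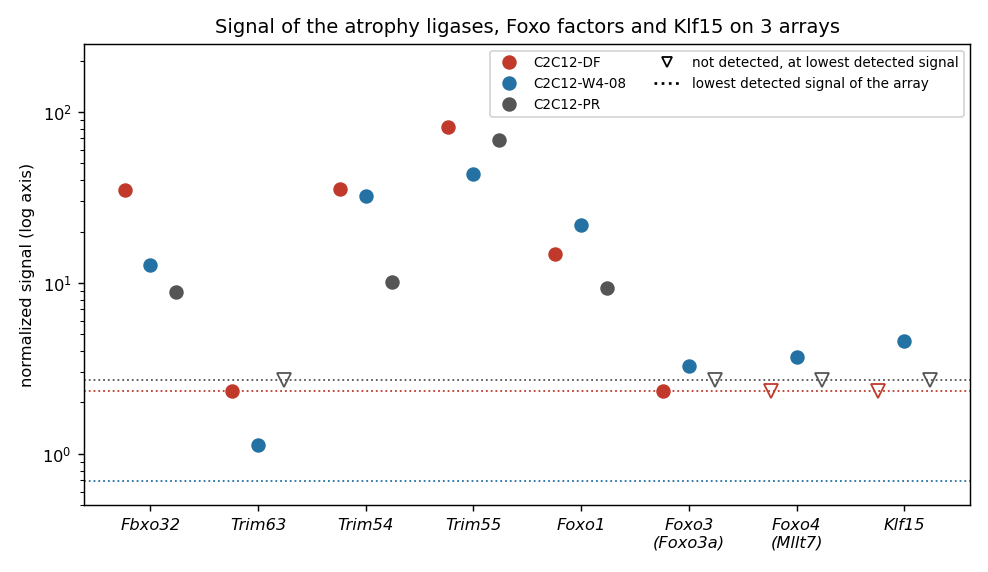
Normalized signal (log axis) of the 8 members on the arrays of C2C12-DF (red), C2C12-W4-08 (blue) and C2C12-PR (grey), 1 array each. Open triangles are probes that were not detected, drawn at the lowest detected signal of their array, and dotted lines mark that signal. Fbxo32 stands at 34.8 in C2C12-DF alone, whereas Trim54 stands above 30 in both C2C12-DF and C2C12-W4-08, against 10.1 in C2C12-PR.

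Fbxo32 had a signal of 34.8 in C2C12-DF, 12.8 in C2C12-W4-08 and 8.91 in C2C12-PR. The spot medians behind these were 94, 34 and 42 scanner units. Fbxo32 was thus high on 1 array, that of the serum-withdrawn cells, 3.90-fold above C2C12-PR (log2 ratio 1.96). Of the probes compared, 0.993% had a ratio as large or larger. In C2C12-W4-08 the ratio was 1.43-fold (log2 0.52), and its sign depended on the background, with −0.57 when the local background around each spot was subtracted and −0.06 with normexp, a model that estimates the background from the whole array and adds an offset. The local background of the Fbxo32 spot was 41 in C2C12-DF, 22 in C2C12-W4-08 and 17 in C2C12-PR.

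Trim54, whose protein binds microtubules and the sarcomere, gave 35.2 in C2C12-DF, 32.2 in C2C12-W4-08 and 10.1 in C2C12-PR. Both arrays stood above C2C12-PR by a similar factor, 3.47-fold for C2C12-DF (log2 1.80) and 3.17-fold for C2C12-W4-08 (log2 1.66). Ratios at least as large were found for 1.28% of the probes compared for C2C12-DF and 1.74% for C2C12-W4-08. Between these arrays, C2C12-W4-08 was at 0.913-fold of C2C12-DF for Trim54 and at 0.367-fold for Fbxo32.

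Trim55 gave 81.4 in C2C12-DF, 43.4 in C2C12-W4-08 and 68.7 in C2C12-PR. Its ratio was 1.18-fold in C2C12-DF (log2 0.24) and 0.631-fold in C2C12-W4-08 (log2 −0.66). Neither passed 2-fold, and the sign of each held under all 11 normalization settings. The 3 MuRF genes thus gave a different reading each, with Trim54 higher on both arrays, Trim55 within 2-fold on both and Trim63 without a measurable ratio.

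Trim63 could not be ordered between the conditions. Its spot medians were 23 in C2C12-DF, 7 in C2C12-W4-08 and 21 in C2C12-PR. The C2C12-DF value was the lowest that counted as detected on that array, and 36 of the 1750 blank spots were as bright. The C2C12-W4-08 spot had a signal of 1.13, and 12 blank spots were as bright. In C2C12-PR the probe was not detected, with 777 blank spots as bright.

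Foxo1 had a signal of 14.7 in C2C12-DF, 21.8 in C2C12-W4-08 and 9.32 in C2C12-PR. Of the 3 Foxo members it alone was detected on all 3 arrays. The ratio was 2.34-fold in C2C12-W4-08 (log2 1.23) and 1.57-fold in C2C12-DF (log2 0.65), and 4.93% and 11.5% of the probes compared had ratios as large. The value in C2C12-W4-08 fell below 2-fold with the local background, at log2 0.62, and when each print block, a group of spots printed together, was centred on its own median, at log2 0.81. The print block of Foxo1 had a median log2 ratio of 0.41 in C2C12-W4-08, within a range of −0.77 to 0.50 over the 48 blocks.

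Foxo3 had spot medians of 23 in C2C12-DF, 12 in C2C12-W4-08 and 26 in C2C12-PR. The probe was detected in C2C12-DF at the lowest detected signal of 2.35 and in C2C12-W4-08 at 3.28, and it was not detected in C2C12-PR. This left no direction for C2C12-DF, and a ratio of at least 1.21-fold higher for C2C12-W4-08. Foxo4, through the Mllt7 probe, had spot medians of 21 in C2C12-DF, 13 in C2C12-W4-08 and 24 in C2C12-PR. Detected in C2C12-W4-08 alone, at 3.71, it was at least 1.36-fold higher there than in C2C12-PR.

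Klf15 had spot medians of 18 in C2C12-DF, 15 in C2C12-W4-08 and 25 in C2C12-PR. It was not detected in C2C12-DF, where 967 blank spots were as bright, or in C2C12-PR, where 154 were. In C2C12-W4-08 no blank spot was as bright, and the signal of 4.57 put the clone at least 1.68-fold higher than C2C12-PR. The processed values that the authors deposited gave Klf15 as 2.10 in C2C12-DF, 10.8 in C2C12-W4-08 and 2.49 in C2C12-PR. All 3 bounds for the clone rest on an array whose blank spots were dimmer and less spread than those of both parental arrays, and the part of this in the result was not tested.

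**Figure D2:**
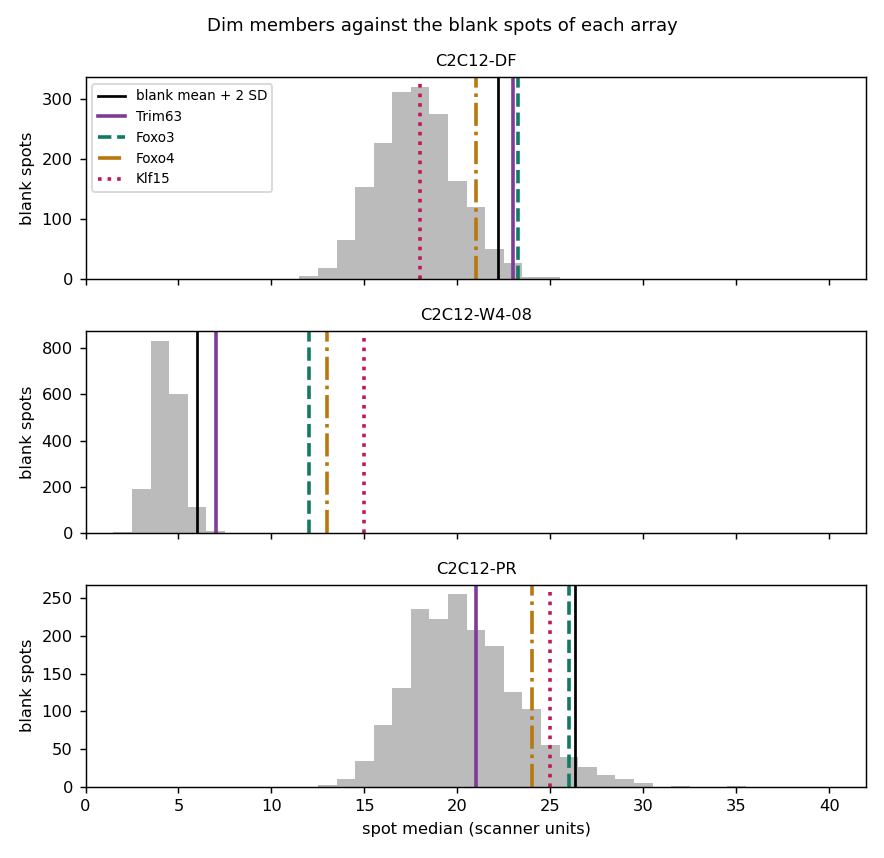
Number of blank spots (grey bars) by spot median in scanner units on each array, with the spots of Trim63, Foxo3, Foxo4 and Klf15 as coloured lines and the blank mean plus 2 SD as a black line. The Foxo3 line in C2C12-DF, at the same 23 units as Trim63, is shifted slightly to the right. In C2C12-PR all of the 4 lines fall left of the black line, whereas in C2C12-W4-08 all of them fall right of it and Klf15 is farthest, at 15.

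Counted together, 4 of the 8 members were detected on both arrays of each comparison. In C2C12-DF, 2 of the 4, Fbxo32 and Trim54, were at least 2-fold higher and 0 were at least 2-fold lower. Among the 15918 probes compared, 4.91% were that much higher and 4.54% that much lower. Among probes of similar brightness, with a mean signal of 5 to 50, these shares were 5.83% and 4.93%. In C2C12-W4-08, 2 of the 4, Trim54 and Foxo1, were at least 2-fold higher and 0 were lower. There, 8.55% of 16682 probes were higher and 11.0% were lower, and for mean signals of 5 to 50 the shares were 11.9% and 8.68%. The median log2 ratio of the 4 members was 1.23 for C2C12-DF and 0.87 for C2C12-W4-08, whereas that of all probes compared was set to 0 by the scaling. These medians depended on the processing, with 0.41 for C2C12-DF and 0.08 for C2C12-W4-08 under normexp, and 0.02 for C2C12-W4-08 with the local background. With so few genes, these counts describe the named genes and carry no more.

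Without replicates, control spots and different probes of 1 gene gave a yardstick within the arrays, which does not cover the spread between cultures. Positive control spots, 24 of each of 3 kinds, had mean log2 ratios of 0.24, 0.10 and 0.14 in C2C12-DF, with SDs of 0.16, 0.10 and 0.09 over spots. In C2C12-W4-08 the means were 1.09, −0.58 and −0.78, with SDs of 0.52, 0.18 and 0.25. On the array of the clone, 1 kind of control thus stood high and the others low, and the kinds lay farther apart than the Trim54 or the Foxo1 ratio lay from 0. The kind that stood high was the dim one, with a median signal of 83.6 in C2C12-PR, against 6826 and 6476 for the others. Trim54 and Foxo1 were dimmer still in C2C12-PR, at 10.1 and 9.32. How far the offset of the dim control reached them was not tested. Different probes of 1 gene differed in log2 ratio by a median of 0.36 for C2C12-DF over 110 genes and 0.65 for C2C12-W4-08 over 114 genes, with 90th percentiles of 0.92 and 1.65. Where both probes had a mean signal of 5 to 50, the 90th percentiles were 0.80 over 30 genes and 2.21 over 33 genes. The C2C12-DF ratios of Fbxo32 and Trim54 lay above these 90th percentiles. In C2C12-W4-08 the Foxo1 ratio lay below both, and the Trim54 ratio lay at that of all probes and below that of the probes of similar brightness. In bulk RNA, more cells that express a gene cannot be told apart from more RNA per cell.

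**Figure D3:**
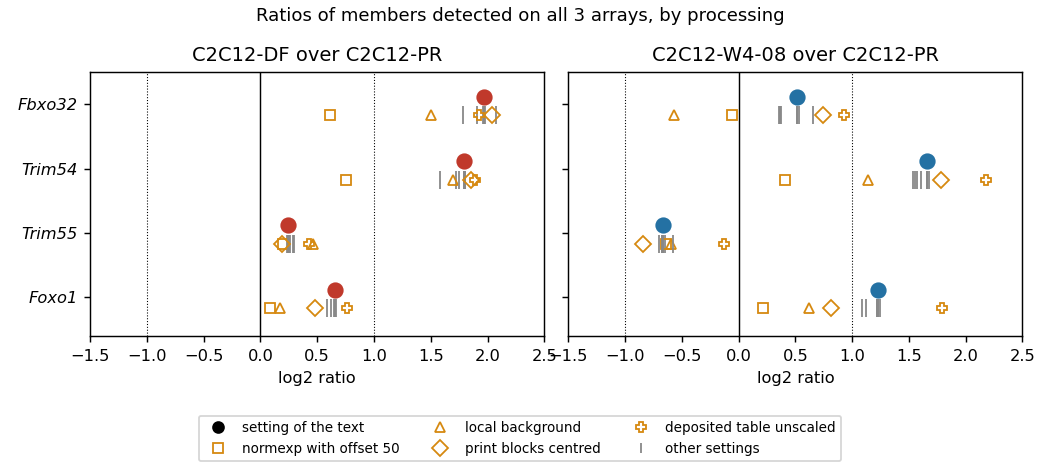
Log2 ratio of Fbxo32, Trim54, Trim55 and Foxo1 in C2C12-DF over C2C12-PR (left) and C2C12-W4-08 over C2C12-PR (right), 1 array per condition. Filled circles give the values of the text, open symbols and ticks the other ways of processing, and dotted lines mark 2-fold. All Fbxo32 values of C2C12-DF lie right of 0, from 0.62 to 2.08, whereas those of C2C12-W4-08 lie on both sides, from −0.57 to 0.93.

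Normexp with an offset of 50, which draws dim ratios towards 0, left none of the members past 2-fold. It gave log2 ratios of 0.62 for Fbxo32 and 0.75 for Trim54 in C2C12-DF, and of 0.41 for Trim54 and 0.21 for Foxo1 in C2C12-W4-08.

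The probes with the most similar pair of ratios were sought among named probes with a signal of at least 20 on every array. For Fbxo32, 3 of 6979 probes lay within a distance of 0.25 on the log2 scale, AI428795, Hist2h2aa1 and Tgm2. For Trim54 there were 0, and the nearest was 2010107H07Rik at 0.34, followed by Plscr2 and Gadd45a. Foxo1 had 64 such probes, with Pdcd2, Uap1l1 and Ric3 nearest. Trim55 had 239, with Shb, Abhd13 and Zfp629 nearest. Fbxo32 and Trim54 were themselves below 20 in C2C12-PR, and the minimum leaves out other probes of that kind, so that the number of neighbours is not a measure of how rare a pattern is. These distances rest on 3 arrays.

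Foxo target genes outside the ligases were followed next, as a list of 17 genes of the cell cycle, stress and metabolism, all detected. Over all probes compared in C2C12-DF, 4.91% were at least 2-fold higher and 4.54% lower, shares that stand beside the counts of every list. Of the Foxo targets in C2C12-DF, 6 were at least 2-fold higher and 1 lower, with a median log2 ratio of 0.55. Highest were Cdkn1b and Cdkn1a, both inhibitors of cyclin-dependent kinases, and Gadd45a and Gadd45b, which respond to growth arrest and DNA damage. Cdkn1b had a signal of 34.3 in C2C12-DF, against 9.74 in C2C12-PR (log2 1.82). Gadd45a had 616, against 184 in C2C12-PR (log2 1.74). Cdkn1a had 918, against 295 in C2C12-PR (log2 1.64), and Gadd45b 118, against 42.3 (log2 1.48). The lower gene was Cited2, a transcriptional coregulator, with 51.7 in C2C12-DF and 136 in C2C12-PR (log2 −1.40). Cdkn1a is also known as a gene that MyoD and myogenic differentiation switch on.

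For C2C12-W4-08 the shares over all probes were 8.55% higher and 11.0% lower, and counts near them are no result about a list. In C2C12-W4-08 the Foxo target list had 2 genes at least 2-fold higher and 2 lower. Its median log2 ratio was 0.01 and was at or below 0 in 7 of 11 normalization settings. Gadd45a was at 859, against 184 in C2C12-PR (log2 2.22), and Cdkn1b at 25.7, against 9.74 (log2 1.40). Lower were Ccng2, a cyclin of cell cycle arrest, with 31.3 in C2C12-W4-08 and 70.8 in C2C12-PR (log2 −1.18), and Sesn3, a sestrin, with 8.88 and 19.2 (log2 −1.11). Sesn3 was named after its values were seen, as the other lower gene. Gadd45a and Cdkn1b were thus high on both arrays, as Trim54 was. Both comparisons use the same C2C12-PR array.

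Autophagy genes, the other route of protein loss that Foxo3 is known to drive, were compared for 21 genes. In C2C12-DF, 3 were at least 2-fold higher and 0 lower, with a median of 0.23. Map1lc3a, an autophagosome membrane protein, had 2230 in C2C12-DF and 353 in C2C12-PR (log2 2.66). Pink1, a kinase that marks damaged mitochondria, had 32.9, against 10.6 (log2 1.64), and Map1lc3b had 309, against 145 (log2 1.09). The clone had 1 higher and 2 lower, with a median of −0.03. Bnip3l, a mitochondrial receptor for autophagy, stood far below with 8.02 in C2C12-W4-08 and 130 in C2C12-PR (log2 −4.02, and −1.88 with normexp). Ulk2, a kinase that starts autophagy, was at 26.1, against 63.8 in C2C12-PR (log2 −1.29). Atg7, which activates the autophagy conjugation system, was at 91.6, against 31.6 (log2 1.54).

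The general ubiquitin machinery gave small ratios in C2C12-DF, where 0 of 23 compared genes passed 2-fold in either direction and the median was −0.02. The largest were Fbxo30, an F-box gene, with 62.6 in C2C12-DF and 93.9 in C2C12-PR (log2 −0.58), and Ube2b, a ubiquitin-conjugating enzyme, with 167 and 112 (log2 0.57). The cullin gene Cul3 had log2 −0.47 but passed 2-fold with normexp and with the local background, at −1.27 in both. The core partners of Fbxo32 in its ligase, looked up for that role, were Skp1, Cul1 and Rbx1, with log2 ratios of 0.56, 0.07 and −0.01. Fbxo32 was thus past 2-fold in C2C12-DF and none of these partners was. Asb2, a substrate receptor of another muscle ligase, had 16.5 in C2C12-DF and no detected signal in C2C12-PR, at least 6.06-fold higher, and it was named after its values were seen. In C2C12-W4-08, 0 were higher and 3 of 23 were lower (8.55% and 11.0% of all probes), with a median of 0.04. Among these were Nedd4, a ligase of membrane proteins, with 718 in C2C12-W4-08 and 1876 in C2C12-PR (log2 −1.39), and Ube2d1, a conjugating enzyme, with 62.7 and 155 (log2 −1.30).

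Genes that signal to Foxo through IGF, PI3K and Akt gave 2 higher and 4 lower of 34 in C2C12-DF, with a median of −0.21. The largest lower ratio was that of Sgk1, a kinase that phosphorylates Foxo proteins as Akt does, with 54.4 in C2C12-DF and 151 in C2C12-PR (log2 −1.47). Ywhaz and Ywhae encode adaptor proteins that hold phosphorylated Foxo in the cytoplasm. Ywhaz had 203, against 531 in C2C12-PR (log2 −1.38), and Ywhae 1302, against 2619 (log2 −1.01). Ywhae fell inside 2-fold with the local background (−0.76), with spot means in place of medians and with print blocks centred. It also did so in the deposited table, scaled (−0.99) and unscaled (−0.85). Sirt3, a mitochondrial deacetylase, was higher with 65.8 in C2C12-DF and 29.5 in C2C12-PR (log2 1.16). In C2C12-W4-08, 2 of 35 were higher and 4 lower (8.55% and 11.0% of all probes), with a median of 0.06. Ywhae was again lower with 1056, against 2619 (log2 −1.31), as was Ywhaz with 257, against 531 (log2 −1.04). Sgk1, however, was at 218, against 151 in C2C12-PR (log2 0.53). Tsc2, a brake on growth signalling below Akt, was at 72.7, against 21.7 (log2 1.74).

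**Figure D4:**
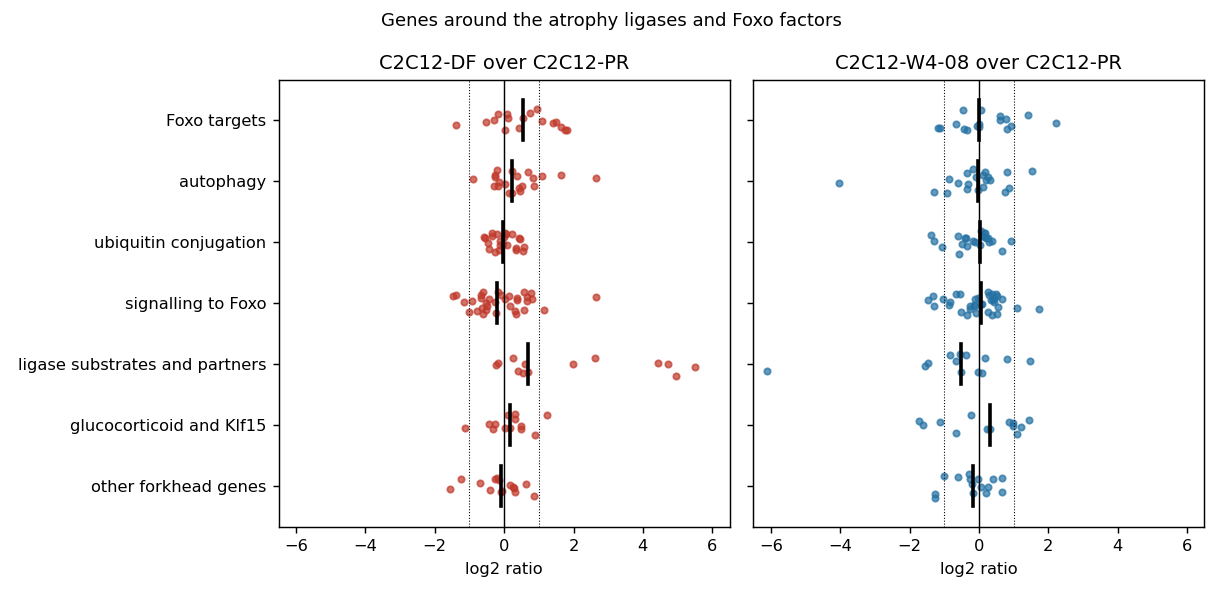
Log2 ratio of each compared gene in 7 lists around the atrophy ligases and Foxo factors, for C2C12-DF over C2C12-PR (left) and C2C12-W4-08 over C2C12-PR (right), 1 array per condition. Each point is a gene, black bars are list medians and dotted lines mark 2-fold. The substrates and partners of the ligases reach 5.49 in C2C12-DF, and their lowest point in C2C12-W4-08 is Ttn, whose spot was at the detection limit there, so that its distance from 0 is not a measured size.

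Many of the proteins on which the ligases act belong to the contractile apparatus, and the genes of several were far brighter in C2C12-DF. Of 13 compared substrates and partners, 6 were at least 2-fold higher and 0 lower, with a median of 0.67, and for 3 genes not detected in C2C12-PR, Ckm, Mybpc2 and Myh1, named after their values were seen, the bound was above 2-fold. Mylpf, a fast myosin regulatory light chain, had 7633 in C2C12-DF and 170 in C2C12-PR (log2 5.49). Myl1, another myosin light chain, had 5102 and 238 (log2 4.42). The troponin subunit genes Tnni1 and Tnni2 had log2 ratios of 4.95 and 4.72. Myod1, a substrate of Fbxo32, had 184 in C2C12-DF and 207 in C2C12-PR (log2 −0.17). Other contractile and cytoskeletal genes of the list had smaller log2 ratios, 2.62 for Myl2, 1.99 for Ttn and 0.55 for Des, named after their values were seen. Myl2 had 3.14 in C2C12-PR, close to the lowest detected signal of 2.72, so that the size of its ratio is uncertain. The log2 ratios of this list ran from −0.23 to 5.49. That range is too wide for the ratios of Fbxo32 and Trim54 inside it to tell anything.

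In the clone, 1 of 13 was higher and 3 lower, with a median of −0.51 that was 0.15 in the deposited table without scaling. Tnni2 had 20.9 in C2C12-W4-08 and 62.1 in C2C12-PR (log2 −1.57), and Myod1 had 74.4 and 207 (log2 −1.47). Mylpf was at 95.5, against 170 in C2C12-PR (log2 −0.83). The brightest of 3 Ttn probes, for titin, read 0.697 in C2C12-W4-08, the lowest detected signal of the array, and 48.1 in C2C12-PR, so that no exact ratio is given, although it counts as 1 of the 3 lower genes. Ppp3ca, a catalytic subunit of calcineurin, which Fbxo32 is known to bind in heart muscle, was higher with 223 in C2C12-W4-08 and 80.7 in C2C12-PR (log2 1.47). Ckm, muscle creatine kinase, was detected at 5.87 in C2C12-W4-08 and not in C2C12-PR, at least 2.15-fold higher. Myl1 had 251 in C2C12-W4-08 and 238 in C2C12-PR (log2 0.08), so that these genes had ratios of both signs in the clone.

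For Klf15, genes of the glucocorticoid response and known Klf15 targets were compared. In C2C12-DF, 1 of 13 was at least 2-fold higher and 1 lower, with a median of 0.18. Tsc22d3, a direct glucocorticoid receptor target, had 481 in C2C12-DF and 204 in C2C12-PR (log2 1.24), whereas Fkbp5, another such target, had 17.9 and 39.4 (log2 −1.14). Hsd11b1, which regenerates active glucocorticoid, had 64.5 in C2C12-DF and was not detected in C2C12-PR, at least 23.7-fold higher, and it was named after its values were seen. In C2C12-W4-08, 3 of 13 were higher and 3 lower, with a median of 0.33. Tsc22d3 was lower with 61.5, against 204 (log2 −1.73), as was Glul, glutamine synthetase, with 11.0, against 33.7 (log2 −1.61). Mt2, a metallothionein, was higher with 926, against 340 (log2 1.45, and 0.36 with normexp). Genes of this list thus had ratios of both signs in each comparison.

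Summed over detected probes, adipocyte, endothelial and osteoblast markers were highest in the clone. Its detection limit was the lowest, and more adipocyte and endothelial probes were detected there, but not more osteoblast probes. The summed signal of 5 adipocyte markers was 25.3 in C2C12-DF, 122 in C2C12-W4-08 and 56.8 in C2C12-PR, with Adipoq not detected on any array. Most of each sum came from Pparg, detected on every array, with 17.9, 97.2 and 48.9 in that order. The summed signal of 5 endothelial markers was 5.09, 12.4 and 3.14, with Pecam1 not detected on any array. Of the 12.4 in the clone, Kdr gave 9.75, whereas Vwf, the endothelial marker detected in both C2C12-W4-08 and C2C12-PR, had 1.99 in C2C12-W4-08 and 3.14 in C2C12-PR. That of 4 osteoblast markers with a probe was 13.9, 23.6 and 13.5, with Ibsp not detected on any array. Sp7, Alpl and Runx2 were detected on every array, so that each osteoblast sum held the same probes. All of them were dim, with 6.30, 6.73 and 10.6 in C2C12-W4-08 and 4.79, 2.72 and 6.02 in C2C12-PR. The Alpl value in C2C12-PR was the lowest detected signal of that array, so that the size of the osteoblast difference is uncertain. The part of these marker differences in the ratios of the clone was not tested.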

How the data were processed

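Total RNA of 3 samples, 1 each of C2C12-DF, C2C12-W4-08 and C2C12-PR, was amplified, coupled to Cy5 and hybridized to 1-colour Toray 3D-Gene mouse oligo arrays. The labels name the miRNeasy Mini Kit for RNA extraction, and the methods of the study name Isogen. The scanner files deposited by the authors hold the spot and local background intensity of 25392 spots, with no normalization. The processed signal table deposited by the authors is linear, background-subtracted and scaled to a median near 25, and empty where not detected. Its exact steps are not given in the sources used here, and it served as an alternative.

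From the scanner files, blank-subtracted spot medians were scaled and called detected as described above, spots of the same probe being averaged. Ratios were formed between probes detected on both arrays. Where 1 array lacked detection, the ratio was a bound against the lowest detected signal of that array, or had no direction. With 1 array per condition, the number of arrays limits precision, and no p-value was computed. For a gene of the lists with several probes, the probe with the highest mean signal was used. Calculations used Python 3.11.15, numpy 2.4.6, pandas 2.3.3, statsmodels 0.14.6, R 4.3.3 and limma 3.58.1 for normexp, and were tested on simulated data. RefSeq supplied promoters and gene synonyms.

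Members and gene lists were chosen with earlier results of these data known. Besides every member, the genes named were, in each list and comparison, up to 4 with the largest ratios in the direction of the list median and up to 2 in the other, with a signal of at least 20 on 1 array, and not all of these were printed. Also named were, for members detected on all arrays, the 3 nearest probes. Of 203 list and marker entries, 16 had no probe under their names. The summed leukocyte markers are not reported here.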

Additional observations from a re-analysis of the deposited data

How the results depend on the processing

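Each ratio was recomputed under 11 other normalizations, backgrounds, spot summaries and detection rules, and the counts also with marks of 1.5-fold and 4-fold. No ratio of a member that passed 2-fold changed sign. In C2C12-DF, the 2 members past 2-fold, both higher, became 0 with normexp, 0 at 4-fold and 3 at 1.5-fold. In C2C12-W4-08, 2 members were past 2-fold, both higher. This count became 0 with normexp, 1 with the local background, 1 with print blocks centred and 0 at 4-fold. In the deposited table, with 6 members compared, it became 3 with scaling and 4 without, all higher. Without a detection rule it was 3 of 8 members, and at 1.5-fold it was 3 of 4. The 0 members lower in C2C12-W4-08 became 1 without a detection rule and 1 at 1.5-fold. The deposited table without scaling had a median log2 ratio over all probes of 0.14 for C2C12-DF and 0.57 for C2C12-W4-08, which adds to every ratio. The share of higher ratios among all probes past 2-fold came to 52.0% for C2C12-DF and 43.6% for C2C12-W4-08, but 33.6% and 18.7% with normexp, 70.5% and 85.1% without scaling and, in C2C12-W4-08, 23.3% without a detection rule. Normexp shrinks dim ratios by its offset. The cause of the other differences was not tested. Of the list genes named as past 2-fold, normexp left inside it, in C2C12-DF, Cdkn1b (log2 0.60), Pink1 (0.36), Map1lc3b (0.87), Sirt3 (0.45), Tsc22d3 (0.92) and Fkbp5 (−0.40) and, in C2C12-W4-08, Cdkn1b (0.45), Ccng2 (−0.50), Ulk2 (−0.92), Atg7 (0.77), Tsc2 (0.82), Tnni2 (−0.89), Ppp3ca (0.70), Glul (−0.86) and Mt2 (0.36). The deposited table without scaling left inside it, in C2C12-W4-08, Ccng2 (−0.67), Ulk2 (−0.68), Nedd4 (−0.88), Ube2d1 (−0.83), Ywhae (−0.80), Ywhaz (−0.53), Myod1 (−0.95) and Glul (−0.87). Genes named after their values were seen, among them Sesn3, Igf1, Myl2 and, in C2C12-DF, Ttn, are not covered here. Whether they stayed past 2-fold in the other settings is not reported.

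List medians in C2C12-DF kept their sign in all settings for Foxo targets (0.08 to 0.74), autophagy genes (0.15 to 0.41), ligase substrates (0.43 to 1.55) and glucocorticoid genes (0.04 to 0.34). The ubiquitin median changed sign (−0.14 to 0.14), as did that of the other forkhead genes, and the signalling median ran from −0.26 to 0.00. The median of the members ran from 0.02 (without a detection rule, over all 8) to 1.23 in C2C12-DF and from 0.02 to 1.67 in C2C12-W4-08. In C2C12-W4-08, those of the Foxo target, autophagy, ubiquitin and signalling lists changed sign with the setting, as did that of the substrates in the deposited table without scaling. No paired analysis was possible because each condition had 1 array. Trim63, Foxo3, Foxo4 and Klf15 had spots within a few blank SDs of the blank mean on both parental arrays, which limits their ratios, and an absence of expression cannot be read from them. With the limit at the blank mean plus 3 SD, the C2C12-W4-08 bounds of Foxo3 and Foxo4 were lost and that of Klf15 went to log2 0.20 (0.75 in the text). In the deposited table, scaled and unscaled, Foxo3 had log2 0.97 and 1.54, Foxo4 bounds of 1.43 and 1.99, and Klf15 1.55 and 2.11.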

Other observations

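Of 34 other forkhead genes, 28 had a probe under their names and 15 were detected on both arrays in each comparison. In C2C12-DF, 0 were at least 2-fold higher and 2 were lower (4.91% and 4.54% of all probes), with a median log2 ratio of −0.08. Foxc2, a factor of mesodermal development, had a signal of 43.5 in C2C12-DF and 102.6 in C2C12-PR (log2 −1.24). Foxo6, the fourth member of the Foxo family, had 33.4 in C2C12-DF and 18.4 in C2C12-PR (log2 0.86). In C2C12-W4-08, 0 were higher and 3 were lower (8.55% and 11.0% of all probes), with a median of −0.16. Foxc2 had 84.3 in C2C12-W4-08 and 102.6 in C2C12-PR (log2 −0.28, and 0.31 with print blocks centred). Foxh1, a partner of Smad proteins, had 8.88 in C2C12-W4-08 and no detected signal in C2C12-PR, at least 3.26-fold higher, and it was named after its values were seen. The medians of this list changed sign with the processing.

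Igf1, the growth factor that restrains Foxo through Akt, was too dim for the rule of named genes and was picked out after its values were seen. Its signal was 19.7 in C2C12-DF, 6.73 in C2C12-W4-08 and 3.14 in C2C12-PR, with log2 ratios of 2.65 and 1.10. The C2C12-PR signal lay close to the lowest detected signal of that array, 2.72, so that the size of both ratios is uncertain.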
